A study of Nannospalax ehrenbergi and Mus musculus with 14 samples.

Results

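The microRNAs described here are those of the hairpins that lie inside the Hox gene clusters: miR-10a and miR-10b, miR-196a and miR-196b, and miR-615. They were chosen by name, as the rows miR-10a-5p, miR-10a-3p, miR-10b-5p, miR-10b-3p, miR-196a-5p, miR-196b-5p, miR-615-3p and miR-615-5p of the deposited tables, which makes 8 of the 1326 microRNA names in each table. All 8 were present and all 8 passed the filter on low values in both tables. Among the Spalax libraries miR-196b-5p and miR-615-5p passed only through libraries of the injected side, so a higher value there is in part built into their being tested.

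Small RNA was sequenced from 4 Spalax (the blind mole rat, a long-lived subterranean rodent caught in the wild) and from C57BL/6 mice, all of which had received 3-methylcholanthrene (3MCA), a chemical carcinogen, as a single injection under the skin of the left side of the neck. Spalax received 1 mg in 500 µl and mice 200 µg in 200 µl. Each animal gave lesion tissue of the injected side (IS) and tissue of the opposite, uninjected side of the neck (UIS). The comparison of IS with UIS asks what differs between the lesions and the uninjected tissue. The limma fits compare group means and do not pair the sides of an animal, except where the animal is named as a replicate block.

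Spalax Sp600 and Sp976, both female, carried benign granulomas and were operated on 14 and 16 months after the injection. Spalax Sp2240, a female, and Sp2230, a male, carried malignant fibrosarcomas and were operated on after 18 and 30 months. Mice M512, M1023 and M1019, all male, carried fibrosarcomas at 11, 12 and 14 weeks. The Spalax of the study were about 2 years old or at least 10 years old and its mice 3 to 4 months old. No library from an uninjected animal is used here, so the UIS is tissue of a tumor-bearing, carcinogen-treated animal. Each Spalax group had 2 libraries and each mouse group 3. The mouse UIS library labelled for mouse M1019 stands under another animal number in the table, and it is called the unnumbered UIS library here and was not paired.

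The libraries held 2034574 to 13982842 reads on microRNAs. Both sides are labelled as muscle. The label was checked with 7 skeletal muscle microRNAs, which took 27.7% to 37.3% of the reads of the UIS libraries and 0.00959% to 3.94% of those of the IS libraries. By limma at an adjusted p under 0.05, all 7 were called lower at the IS in both Spalax conditions and 3 in the mouse tumors. The median log2 change of the 7 in mice was -6.28. Of all microRNAs tested, 22.8% were called lower in granuloma, 22.1% in Spalax fibrosarcoma and 25.6% in mice. The defining markers of the labelled tissue were thus largely absent from the Spalax IS libraries and from the tumor of mouse M1019. In the tumors of mice M1023 and M512 they still took 2.57% and 3.94% of the reads. Of 5 fibroblast and mesenchymal microRNAs, 5 were higher in granulomas and 4 in mouse tumors, whereas 0 passed in Spalax tumors by limma. Of 5 leukocyte microRNAs, 3 were called higher in granuloma (and 1 lower), 3 in Spalax fibrosarcoma and 2 in mice. Of 3 red cell microRNAs 1 was called lower in each comparison, and both endothelial ones were. The median log2 changes of the red cell ones were -1.07, -1.29 and -2.54 in granuloma, Spalax fibrosarcoma and mice. Of 6 epithelial ones 4, 4 and 3 were tested, with medians of 1.09, 1.01 and 1.31, and 1, 1 and 0 were called higher. These shifts move with every IS against UIS comparison given here, and their part in the results was not tested. In bulk tissue a cell type that became rarer and a cell type that made less of a microRNA cannot be told apart.

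The Hox genes are transcription factors that give tissues their position along the body axis, and their order within a cluster follows the order in which they act from head to tail. The microRNAs embedded in the clusters are made together with their Hox neighbours and in turn repress Hox messages: miR-10 is known to target Hoxd10 and other members, and miR-196 to target Hoxb8. miR-10b has been studied widely as a microRNA of tumor invasion, and miR-196 is known for its rise in several cancers and for its posterior domain of expression.

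The hairpins are shown first, because how far the members can be told apart depends on their letters. All positions are from GENCODE M21 on the mouse build GRCm38, a build that the submitters' processing notes list without saying for which step. The miR-10 hairpins are printed as a pair. Capitals mark the longest stretch that both share when a single differing base is allowed, and the differing base is in lower case within it.
Mir10a: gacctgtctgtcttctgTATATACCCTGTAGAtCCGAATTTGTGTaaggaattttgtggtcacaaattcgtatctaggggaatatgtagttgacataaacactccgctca
Mir10b: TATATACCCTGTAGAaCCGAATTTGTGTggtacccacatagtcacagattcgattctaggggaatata

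The shared stretch of miR-10a and miR-10b was 28 bases long and held the single difference T16A, counted from 1 at the first capital with the Mir10a base first. This stretch lies in the 5′ arm, from which the abundant 5p product is cut. Mir10a lies at chr11:96317165-96317274 on the plus strand, between Hoxb5 and Hoxb4, overlaps no other annotated gene, and ends 0.993 kb before Hoxb4. Mir10b lies at chr2:74726070-74726137 on the plus strand, in introns of the annotated Hoxd3 and Hoxd4 genes. Reads of the 5p arms that do not cover the differing base, or that carry an error there, could be counted for either name, and the settings of the authors' counting are not given in the sources used here.

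The miR-196 hairpins are printed as a trio for the same reason, with the capitals as above. The product miR-196a-5p is cut from both Mir196a-1 and Mir196a-2, and miR-196b-5p from Mir196b alone.
Mir196a-1: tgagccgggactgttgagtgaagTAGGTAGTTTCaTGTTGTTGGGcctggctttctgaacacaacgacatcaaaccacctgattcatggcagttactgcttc
Mir196a-2: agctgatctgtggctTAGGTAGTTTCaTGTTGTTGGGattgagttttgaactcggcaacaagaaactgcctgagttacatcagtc
Mir196b: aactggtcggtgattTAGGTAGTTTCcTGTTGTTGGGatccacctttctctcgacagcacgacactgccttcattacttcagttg

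The stretch common to the trio was 22 bases long, again with 1 difference, A12C, counted from the first capital with the Mir196a-1 base first. Mir196a-1 and Mir196a-2 were identical over it, so the 5p reads do not tell which of the HoxB or HoxC loci they came from, while the 3p arms differ. Mir196a-1 lies at chr11:96265164-96265265 on the plus strand, 6.19 kb before Hoxb9 and in no other annotated gene. Mir196a-2 lies at chr15:102973350-102973434 on the plus strand, in an intron of the annotated Hoxc5 gene, 1.46 kb past Hoxc10 and 3.00 kb before Hoxc9. Mir196b lies at chr6:52230081-52230165 on the minus strand, inside an annotated exon of Hoxa9 and 1.03 kb past Hoxa10.

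The remaining hairpin has no relative among the members and is shown without capitals, for its base composition.
Mir615: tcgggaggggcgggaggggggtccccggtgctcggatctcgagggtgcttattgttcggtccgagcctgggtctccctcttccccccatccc

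Mir615 lies at chr15:103014910-103015001 on the plus strand, in an intron of Hoxc5 and in the same cluster as Mir196a-2. Its 92 bases were 69.6% G and C, against 39.7% to 48.0% for the other hairpins. The map of the Hox genes around each hairpin shows that the miR-196 hairpins sit next to the paralogue group of Hox9 and Hox10, while the miR-10 hairpins sit beside Hox4.

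**Figure D1:**
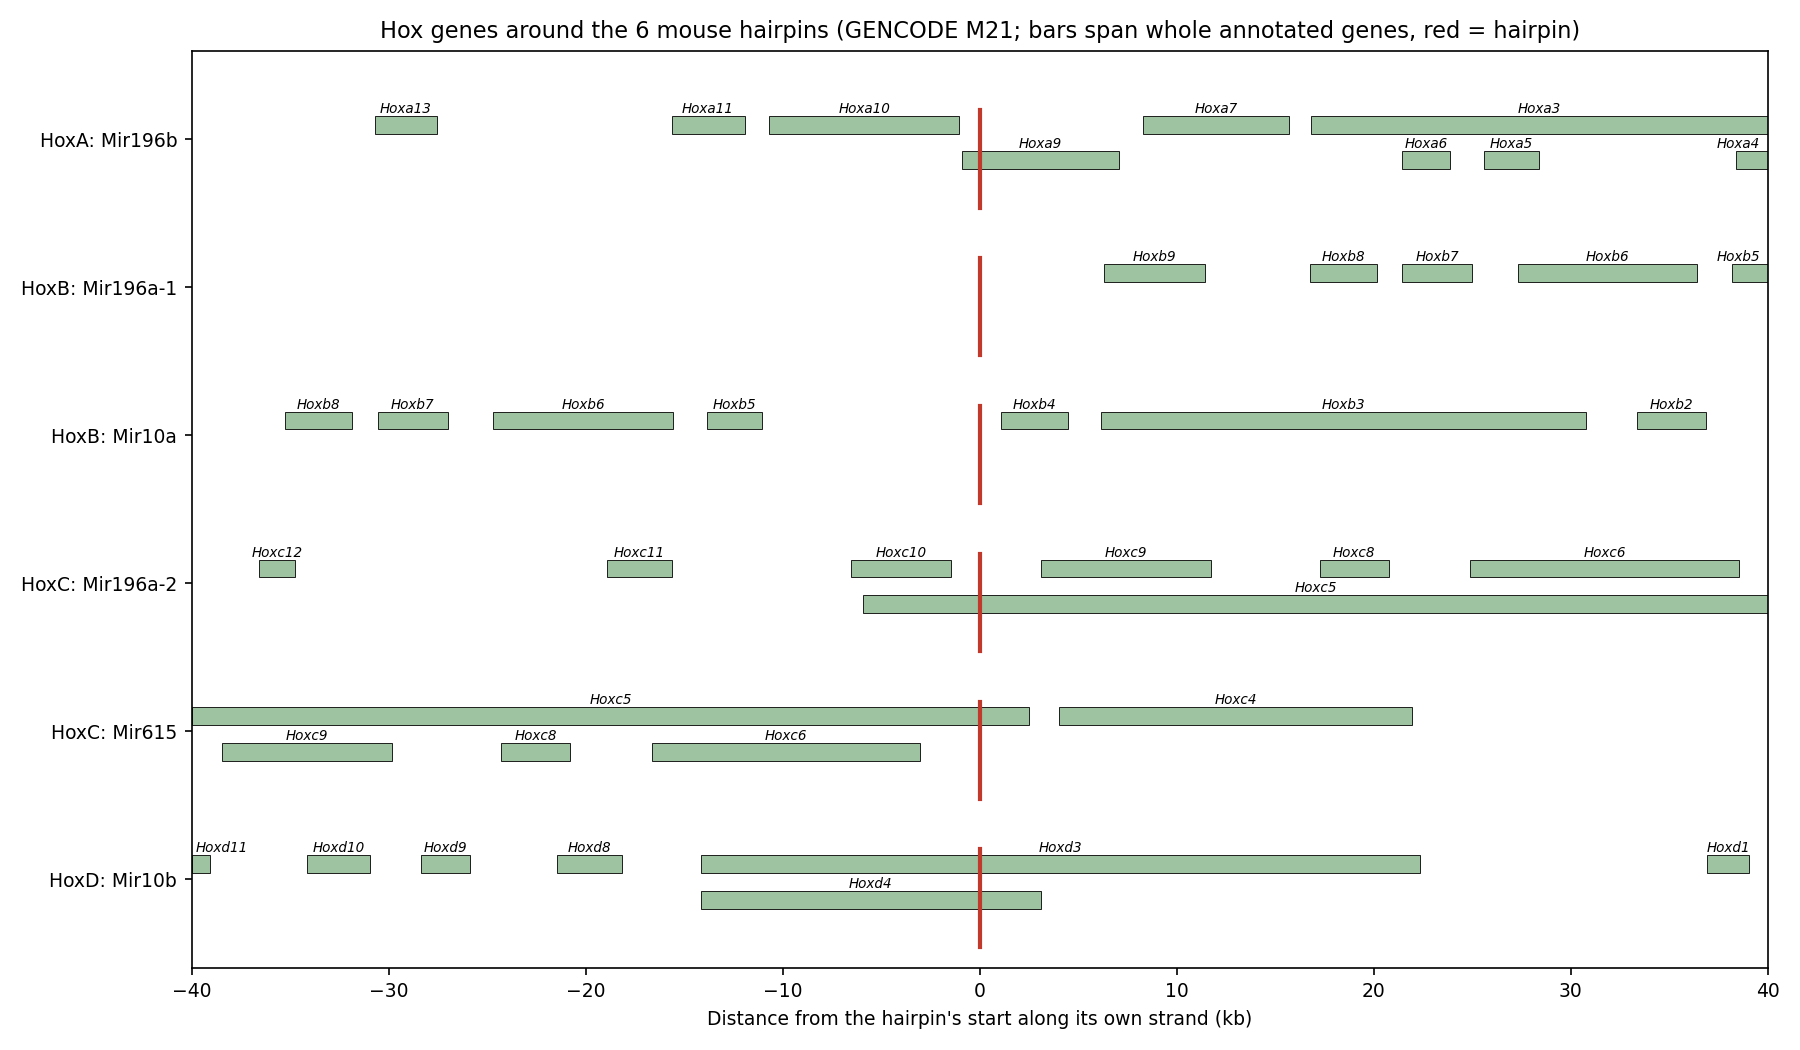
Hox genes within 40 kb of each of the 6 mouse hairpins, drawn to scale along the hairpin's strand, with distance from the start of the hairpin in kb on the x axis; green bars span annotated genes and red lines mark the hairpins. Mir10a and Mir10b stand next to or within Hox4 genes, the miR-196 hairpins between or within Hox9 and Hox10 genes or before Hox9, and Mir615 between Hoxc6 and Hoxc4.

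The members span a wide range of levels. Values are given as deposited, that is, reads divided by a size factor of the library, and reads are the whole reads recovered from them. Together the 8 members took 2.83% to 9.81% of a library's microRNA reads, almost all of it from the 5p arms of miR-10. miR-10b-5p ranked between 4 and 17 among all microRNAs by reads, and miR-10a-5p between 4 and 37. The 3p arms of miR-10 and both arms of miR-615 ranked far lower, from 139 downwards. The rank of miR-196a-5p ran from 39 to 559 and that of miR-196b-5p from 92 to 595, the widest spans among the members.

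**Figure D2:**
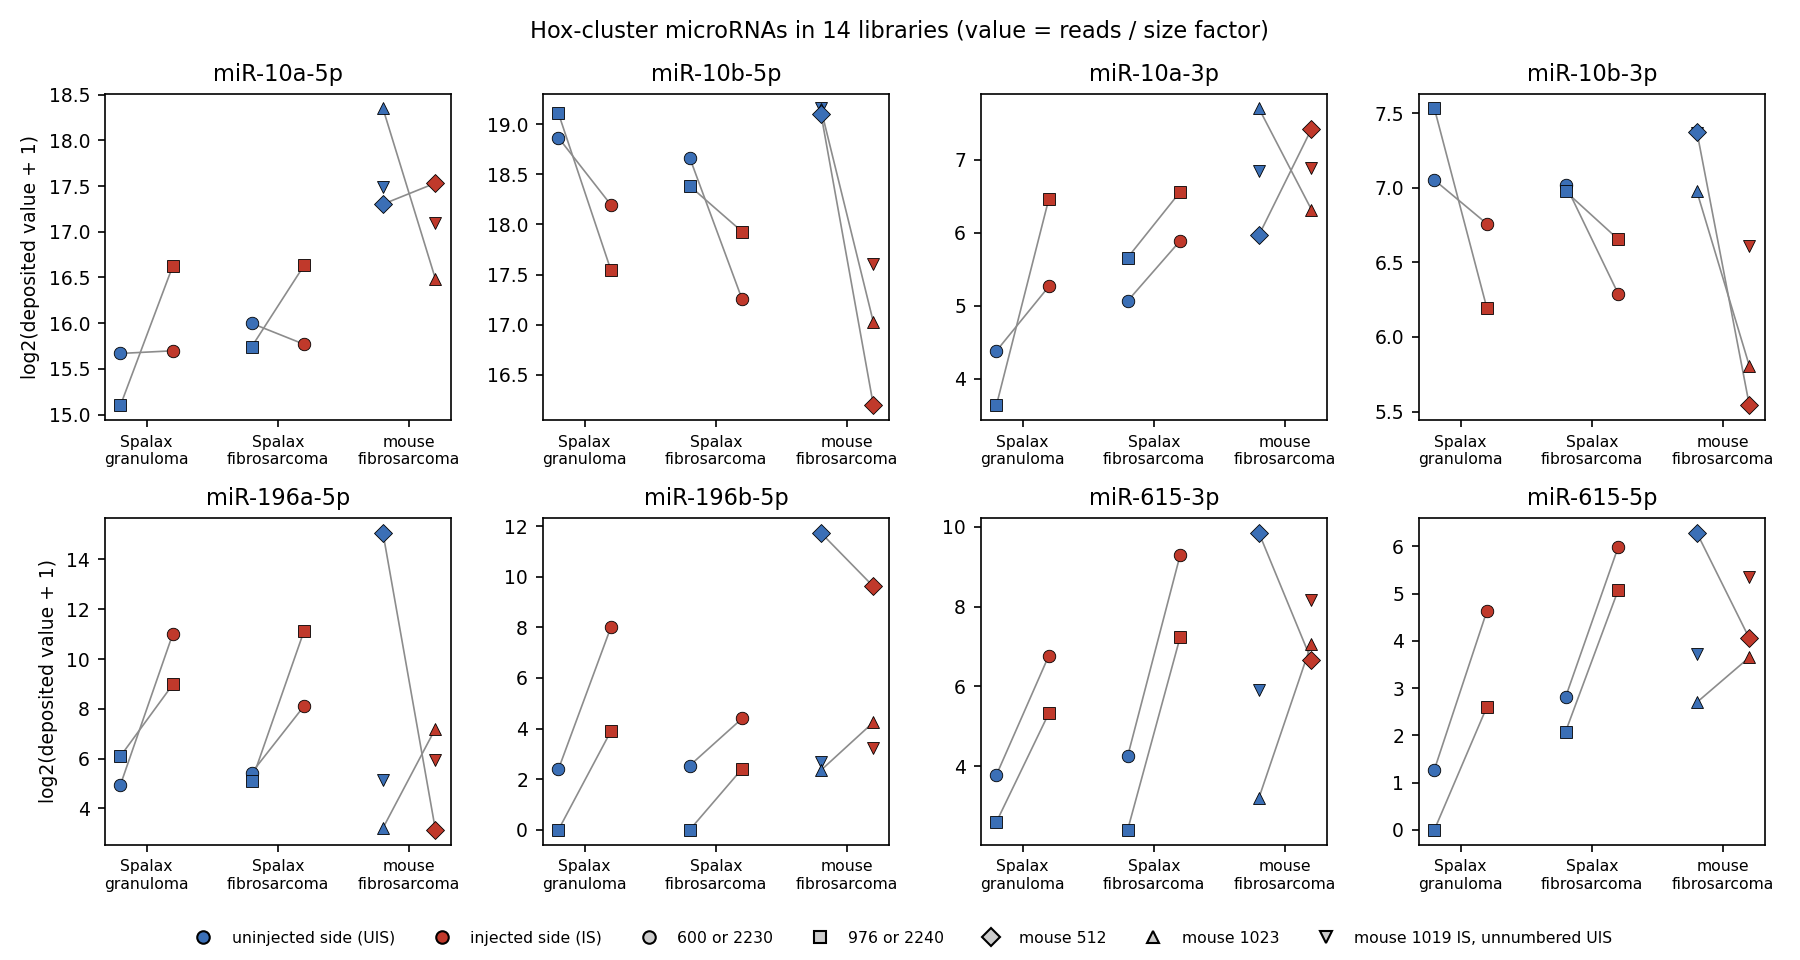
Log2(deposited value + 1) of the 8 members in the 14 libraries; blue is UIS, red is IS, marker shapes name the animals and lines join the sides of an animal. miR-10b-5p was lower at the IS in every paired animal and miR-196a-5p and miR-615-3p higher in all 4 Spalax, while the UIS library of mouse M512 lay far above the other mouse UIS libraries in miR-196 and miR-615.

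One library stood apart and touches every mouse result on miR-196 and miR-615. In the UIS library of mouse M512, miR-196a-5p had 17897 reads, against 6 in the UIS library of mouse M1023 and 25 in the unnumbered one. On the log2(value + 1) scale it lay 10.90 above the mean of the other mouse UIS libraries, the highest of the 547 microRNAs tested. miR-196b-5p lay 9.21 above that mean and ranked 2, miR-615-3p lay 5.28 above it and ranked 3, and miR-615-5p lay 3.07 above it and ranked 6. The miR-10 members of the same library did not share this, since they differed from that mean by -1.31 to 0.20. The differences of all 547 microRNAs in this library had a median of -0.08 and an SD of 1.22. These ranks were looked at after the values had been seen. From which spot of the neck the tissue of this library was taken, and whether it is that of the animal named, could not be checked here.

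The same library resembled the other mouse UIS libraries in its skeletal muscle share, 27.7% against 28.7% and 29.8%. It differed in its share of 3 red cell microRNAs, 18.0% against 7.17% and 8.16%. Epithelial microRNAs took 0.000787% of its reads against 0.000306% and 0.000505%. The part of these shares in the miR-196 and miR-615 values was not tested. The 3p arms tell the miR-196a hairpins apart: miR-196a-2-3p, from the HoxC hairpin, had 144 reads in this library and miR-196a-1-3p, from the HoxB hairpin, had 0. A count of 0 allows up to 3 reads.

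The tumor of mouse M512 differed from the other tumors in another way. It held 704 reads of miR-196b-5p but only 7 of miR-196a-5p, whereas the tumors of mice M1019 and M1023 held 23 and 25 reads of miR-196b-5p beside 168 and 203 of miR-196a-5p. In every other library with at least 10 reads of both names, miR-196a-5p exceeded miR-196b-5p, by 7.30 to 36.3 times. The tumor of mouse M512 was thus the only library in which the order of the pair was the other way round.

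miR-10b-5p, the HoxD product, was the most abundant member in 13 of the 14 libraries and was lower at the IS. In granuloma animal Sp600 its value was 477972 at the UIS and 300326 at the IS, and in animal Sp976 it was 566155 and 191124. In fibrosarcoma animal Sp2230 it was 416446 at the UIS and 156075 at the IS, and in animal Sp2240 it was 342346 and 249369. In mice it was 585416, 583668 and 564363 at the UIS of the unnumbered library, M1023 and M512, and 200085, 133170 and 74962 at the IS of M1019, M1023 and M512. As shares of a library's reads the mouse values were 2.10% to 3.77% at the UIS and 1.95% to 5.76% at the IS, so those sides overlapped. On the deposited scale the sides did not overlap in any of the conditions, though the share over all microRNAs was not counted. There the mouse UIS libraries lay close together while the tumors spread over a wider range.

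On this scale miR-10b-5p fell 2.17-fold in granuloma, with a log2 change of -1.12 (SE 0.34, limma's adjusted p = 0.0285), and 4.59-fold in mouse fibrosarcoma, with a log2 change of -2.20 (SE 0.38, adjusted p = 0.00389). In Spalax fibrosarcoma its log2 change was -0.94 (SE 0.34, adjusted p = 0.0635). The granuloma call was lost once the animal was a replicate block (adjusted p = 0.0558), and the mouse call held at 0.00246. Without both libraries of M512, an alternative chosen after seeing the data, the mouse change was -1.84 (adjusted p = 0.00997). The granuloma call was also lost without a filter, and without the IS library of Sp976 or any UIS library of Spalax.

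The direction of miR-10b-5p depended on the scaling. Dividing by total microRNA reads instead of the authors' size factors raised the median log2 change over all microRNAs tested, to 1.90 for granuloma where it had been 0.13, to 1.40 for Spalax fibrosarcoma where it had been -0.23, and to 2.57 for the mouse tumors where it had been 0.21. Its own log2 change then turned to 0.73, 0.75 and 0.18, none of them past the threshold. Relative to the median of all microRNAs it was at -1.25 and -1.18 in granuloma, -0.71 and -0.64 in Spalax tumors and -2.41 and -2.39 in mouse tumors. Subtracting the median removes the shift between the scalings, so each pair of values had to be nearly equal. Their likeness does not test whether the fall depends on the scaling.

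miR-10a-5p, the HoxB product, did not pass the test in any of these comparisons. Its values in granuloma were 52106 and 53174 at the UIS and IS of animal Sp600 and 35145 and 101398 in animal Sp976. In Spalax fibrosarcoma they were 65473 and 55844 in animal Sp2230 and 54807 and 101690 in animal Sp2240. In mice they were 184281, 333928 and 161500 at the UIS of the unnumbered library, M1023 and M512, and 139821, 91617 and 189557 at the IS of M1019, M1023 and M512. The sides overlapped in Spalax fibrosarcoma and in mice, and in each of them the paired animals moved in opposite directions, while both granuloma animals were higher at the IS. Its log2 changes were 0.78 (SE 0.44, limma's adjusted p = 0.181) in granuloma, 0.33 (SE 0.44, adjusted p = 0.588) in Spalax fibrosarcoma and -0.68 (SE 0.40, adjusted p = 0.181) in mice. Under total-read scaling its changes were 2.62, 2.02 and 1.70, each past the threshold (adjusted p = 0.00186, 0.00638 and 0.0166). Relative to the median of all microRNAs under that scaling they were 0.72, 0.62 and -0.87, so the Spalax and mouse values lay on opposite sides of the median.

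The balance of the pair within a library does not depend on the scaling between libraries. At the Spalax UIS there was 1 read of miR-10a-5p to 6.25 to 16.1 reads of miR-10b-5p, and at the Spalax IS 1 to between 1.88 and 5.65. In animal Sp976 the ratio of miR-10a-5p to miR-10b-5p was 0.0621 at the UIS and 0.531 at the IS. In mice it was 0.315, 0.572 and 0.286 at the UIS and 0.699, 0.688 and 2.53 at the IS. The tumor of mouse M512 was the only library with more miR-10a-5p than miR-10b-5p.

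The ratio was higher at the IS in 6 of 6 paired animals. The rise was 1.62 ± 1.22 on the log2 scale (SD, n = 6 pairs), or 3.08-fold, with an exact two-sided sign-flip p = 0.0312, the smallest that 6 pairs allow. Adjusted over the 3 ratios that could be tested, p was 0.0469. The pairs ranged from 1.20-fold in mouse M1023 and 1.62-fold in Spalax Sp600 to 8.55-fold in Spalax Sp976 and 8.84-fold in mouse M512. Within Spalax the sides did not overlap (log2 ratio -1.55 ± 0.68 at the IS against -3.13 ± 0.64 at the UIS, SD, n = 4 each, exact permutation p = 0.0286). Within mice they did not overlap either, at an exact permutation p = 0.1, the smallest that 3 against 3 libraries allow.

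**Figure D3:**
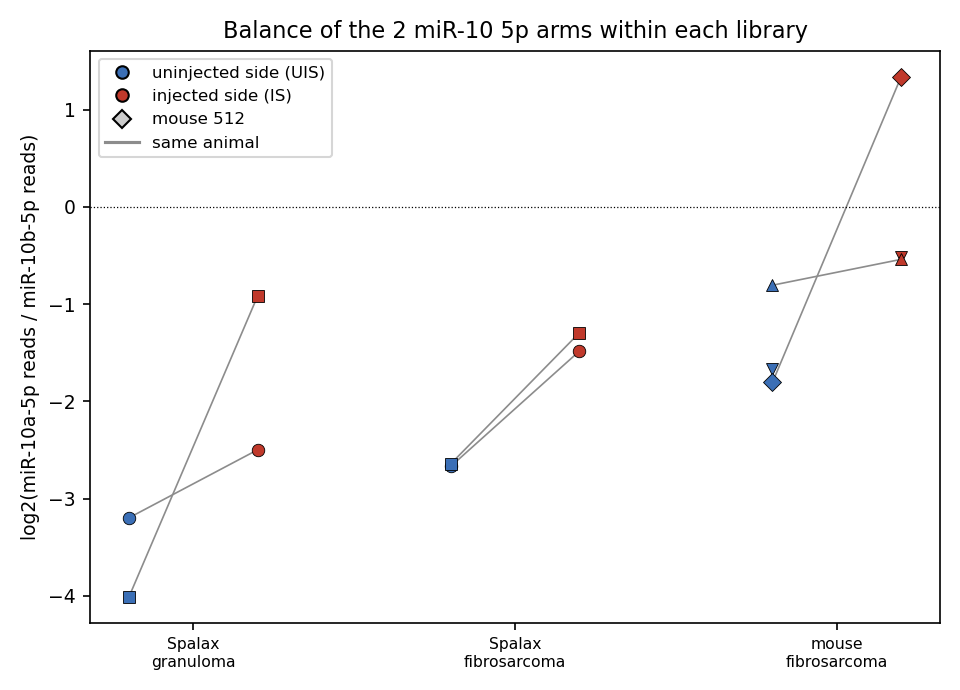
Log2 ratio of miR-10a-5p to miR-10b-5p reads within each library (y axis) by condition and side; blue is UIS, red is IS and lines join the sides of an animal, with the dotted line at equal reads. All 6 lines rise from UIS to IS, and only the tumor of mouse M512 lies above equal reads.

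The uninjected sides of the species were also compared in this balance. The log2 ratio was -1.43 ± 0.54 in the 3 mouse UIS libraries and -3.13 ± 0.64 in the 4 Spalax UIS libraries, a 3.26-fold difference with no overlap. The exact permutation p was 0.0571, the smallest that 3 against 4 libraries allow, so the design could not pass 0.05. Spalax reads were counted under mouse names, and how well the Spalax sequences match those names was not tested.

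The 3p arms of miR-10 were minor products. For every read of miR-10a-3p there were 959 to 2626 reads of miR-10a-5p in the libraries with at least 10 reads of both, and for every read of miR-10b-3p there were 1645 to 4673 reads of miR-10b-5p. miR-10a-3p rose in granuloma, from values of 19.8 and 11.4 at the UIS of animals Sp600 and Sp976 to 37.4 and 87.4 at the IS (log2 change 1.86, SE 0.62, limma's adjusted p = 0.0404). The call was lost with the animal as a replicate block (adjusted p = 0.0699), without a filter and in a fit of only the 4 libraries compared. It was also lost without the IS library of Sp976 or any UIS library of Spalax. In Spalax fibrosarcoma its log2 change was 0.86 (adjusted p = 0.309) and in mice 0.04 (adjusted p = 0.957).

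miR-10b-3p, like its 5p arm, was lower at the IS in every paired animal. In mice it fell, from 164, 125 and 165 at the UIS of the unnumbered library, M1023 and M512 to 96.8, 54.9 and 45.6 at the IS of M1019, M1023 and M512 (log2 change -1.25, SE 0.44, limma's adjusted p = 0.0432). This call was lost with the animal as a replicate block (adjusted p = 0.140), by edgeR and without a filter. It was also lost without both libraries of mouse M512, and without any 1 of 5 of the 6 mouse libraries. In Spalax its log2 changes were -0.82 (adjusted p = 0.177) in granuloma and -0.52 (adjusted p = 0.397) in fibrosarcoma. Under total-read scaling its changes turned to 1.01, 1.14 and 1.10 in granuloma, Spalax fibrosarcoma and mice, below the median of all microRNAs in each.

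The share of the minor arm moved within libraries. The ratio of miR-10b-3p to miR-10b-5p was higher at the IS in 6 of 6 pairs, by 0.57 ± 0.39 on the log2 scale, or 1.48-fold (exact sign-flip p = 0.0312, adjusted p = 0.0469). Without pairing, the 4 Spalax IS and 4 UIS libraries gave a difference of 0.35 (exact permutation p = 0.0571). For miR-10a the 3p to 5p ratio was higher at the IS in 5 of 5 pairs, by 0.74 ± 0.49, or 1.67-fold (exact sign-flip p = 0.0625, the smallest that 5 pairs allow, adjusted p = 0.0625). The pair of Spalax Sp976 was left out of the latter because its UIS library held 9 reads of miR-10a-3p. With 1 read added to every count and that pair kept, the rise was 0.81 (exact sign-flip p = 0.0312).

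miR-196a-5p was higher at the IS in all 4 Spalax. Its values at the UIS were 29.8, 67.3, 42.1 and 33.4 in animals Sp600, Sp976, Sp2230 and Sp2240, from 21 to 53 reads. At the IS they were 2078, 505, 277 and 2263 in the same animals, from 399 to 1665 reads. The lowest IS value was above the highest UIS value, though the share of all microRNAs with such a gap was not counted. The IS values differed among themselves by much more than the UIS values did. The log2 change was 4.48 (SE 1.07, limma's adjusted p = 0.0123) in granuloma and 4.37 (SE 1.07, adjusted p = 0.0158) in Spalax fibrosarcoma, or 22.4-fold and 20.6-fold, the same direction under each scaling.

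Since each Spalax group had 2 libraries, the calls rested on single libraries. Without the IS or the UIS library of Sp600 the granuloma change was 3.47 or 3.91 with an adjusted p of 0.0606 or 0.0817 by limma. Without the IS library of Sp2240 the fibrosarcoma change was 2.85 (adjusted p = 0.0555), and without the UIS library of Sp2230 or Sp2240 it was 4.53 or 4.20 (adjusted p = 0.0814 or 0.0959). In such a fit the lone library of a group is assumed to vary like the other groups.

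In mice the values of miR-196a-5p were 33.9, 8.24 and 34392 at the UIS of the unnumbered library, M1023 and M512, and 60.9, 147 and 7.78 at the IS of M1019, M1023 and M512. Mouse M512 held the highest UIS value and the lowest IS value, and the sides overlapped. The log2 change was -2.37 (SE 2.95, limma's adjusted p = 0.507). Without the UIS library of mouse M512 it was 1.26 (adjusted p = 0.446), and without both libraries of mouse M512, an alternative chosen after seeing the data, it was 2.41 (adjusted p = 0.0478).

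miR-196b-5p, the HoxA product, was near the limit of detection in the Spalax UIS libraries, with 3, 0, 4 and 0 reads in animals Sp600, Sp976, Sp2230 and Sp2240. Their IS libraries held 205, 11, 37 and 2 reads. Every animal had more at the IS, but the numbers were small in all but animal Sp600. The log2 change was 4.76 (SE 1.59) in granuloma and 2.14 (SE 1.59) in Spalax fibrosarcoma. It was tested there only through its IS libraries, so these changes are given as values, with no test. From the summed reads per size factor the ratio in granuloma was 67.6 (95% exact counting interval 22.8 to 330.2), an interval that covers counting error only. Without the IS library of Sp600 the granuloma change was 2.70. In mice the values were 5.43, 4.12 and 3399 at the UIS and 8.34, 18.1 and 782 at the IS, the highest of each side being that of mouse M512, and the log2 change was 0.11 (SE 2.79, limma's adjusted p = 0.973). Without either library of mouse M512 it no longer passed the filter.

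Other arms of these hairpins held few reads. miR-196a-2-3p had 9, 3, 8 and 9 reads at the IS of Spalax Sp600, Sp976, Sp2230 and Sp2240 and 0 at each UIS. Set against 3 reads over the UIS libraries of a condition, it was at least 3.75-fold higher in granuloma and at least 4.34-fold higher in Spalax fibrosarcoma. It too passed the filter only through the IS, and no test of it is given. miR-196a-1-3p had 0 to 6 reads in any library and miR-196b-3p 0 to 4, and neither was tested.

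miR-615-3p, from the HoxC intron, was higher at the IS in all 4 Spalax. Its values were 12.8, 5.08, 18.1 and 4.31 at the UIS of animals Sp600, Sp976, Sp2230 and Sp2240, from 4 to 15 reads, and 109, 39.3, 626 and 150 at the IS, from 31 to 1149 reads. No IS library overlapped with a UIS library, though the share of all microRNAs without overlap was not counted. Animal Sp2230 had the highest value on both sides. The log2 change was 2.86 (SE 0.97, limma's adjusted p = 0.0427) in granuloma and 4.93 (SE 0.97, adjusted p = 0.00717) in Spalax fibrosarcoma, or 7.26-fold and 30.6-fold. The fibrosarcoma call was lost without the UIS library of Sp2240, and the granuloma call without the IS library of Sp600 or any UIS library of Spalax. The granuloma call was also lost with a pseudocount of 0.1 and without a filter.

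miR-615-5p, the other arm, had fewer reads. It had 1, 0, 5 and 3 reads at the UIS of animals Sp600, Sp976, Sp2230 and Sp2240 and 19, 4, 114 and 15 at the IS. Every animal had more at the IS. The log2 change was 2.98 (SE 0.88) in granuloma and 3.08 (SE 0.88) in Spalax fibrosarcoma, values with no test for the same reason as for miR-196b-5p. Since its granuloma UIS libraries held 1 read between them, the ratio of summed reads per size factor there, 21.6, had a wide exact counting interval, from 3.50 to 889. The 3p arm had 4.58 to 12.0 reads for every read of the 5p arm in the 7 libraries with at least 10 of both, the reverse of the miR-10 hairpins.

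In mice the values of miR-615-3p were 59.7, 8.24 and 920 at the UIS of the unnumbered library, M1023 and M512, and 288 and 134 at the IS of M1019 and M1023, while the IS library of M512 held 90 reads. The IS libraries lay above the first pair of UIS libraries and below that of mouse M512. The log2 change was 0.98 (SE 1.54, limma's adjusted p = 0.595), and 3.06 (adjusted p = 0.0423) without both libraries of mouse M512. Without its UIS library alone the change was 2.74 (adjusted p = 0.0594). miR-615-5p had 9, 4 and 40 reads at the UIS and 110, 16 and 14 at the IS of the same mouse libraries, with a log2 change of 0.12 (SE 0.97, adjusted p = 0.925) in mice. Under total-read scaling that change was 2.33 (limma's adjusted p = 0.0384), which was -0.24 relative to the median of all microRNAs under that scaling.

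Counted over the 8 members, 6 passed the threshold in granuloma, where 48.3% of the 447 microRNAs tested did. miR-196b-5p and miR-615-5p are among the 6 and had to be higher at the IS to be tested. Of the 6 members that also reached the filter's level at the UIS, 4 passed: miR-10a-3p, miR-196a-5p and miR-615-3p rose, where 25.5% of all microRNAs did, and miR-10b-5p fell, where 22.8% did. The shares over all microRNAs still hold those tested only through the IS. In the fit with the replicate block 2 of these 6 members passed (miR-196a-5p and miR-615-3p), where 210 of the 447 microRNAs did. In Spalax fibrosarcoma 3 members passed, against 37.4% of all microRNAs. Without miR-615-5p, again tested only through the IS, 2 of the 6 passed and both rose (miR-196a-5p and miR-615-3p), where 15.2% of all microRNAs rose and 22.1% fell. In mouse fibrosarcoma 2 members passed, both of which fell (miR-10b-5p and miR-10b-3p), against 57.8% of all 547 microRNAs, 32.2% that rose and 25.6% that fell. The split of calls turned with the scaling. Under total-read scaling 3 members passed in mice and all were higher at the IS, miR-10a-5p by 1.70, miR-10a-3p by 2.39 and miR-615-5p by 2.33 on the log2 scale, where 373 of 404 calls over all microRNAs were higher, against 176 of 316 under the authors' scaling. In granuloma 253 of 302 calls were higher under it, against 114 of 216, and in Spalax fibrosarcoma 193 of 234, against 68 of 167.

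The 6 members that reached the filter's level at the UIS had a median log2 change of 1.32 in granuloma and of 0.60 in the Spalax tumors, and the 8 members one of -0.32 in the mouse tumors, beside the medians over all microRNAs given above. The granuloma and fibrosarcoma comparisons use different animals, and the mouse table was normalized and fitted apart. The mouse share of calls was below its background, and the Spalax shares rest on a short list whose arms share hairpins. The plot of changes sets all 3 comparisons side by side.

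**Figure D4:**
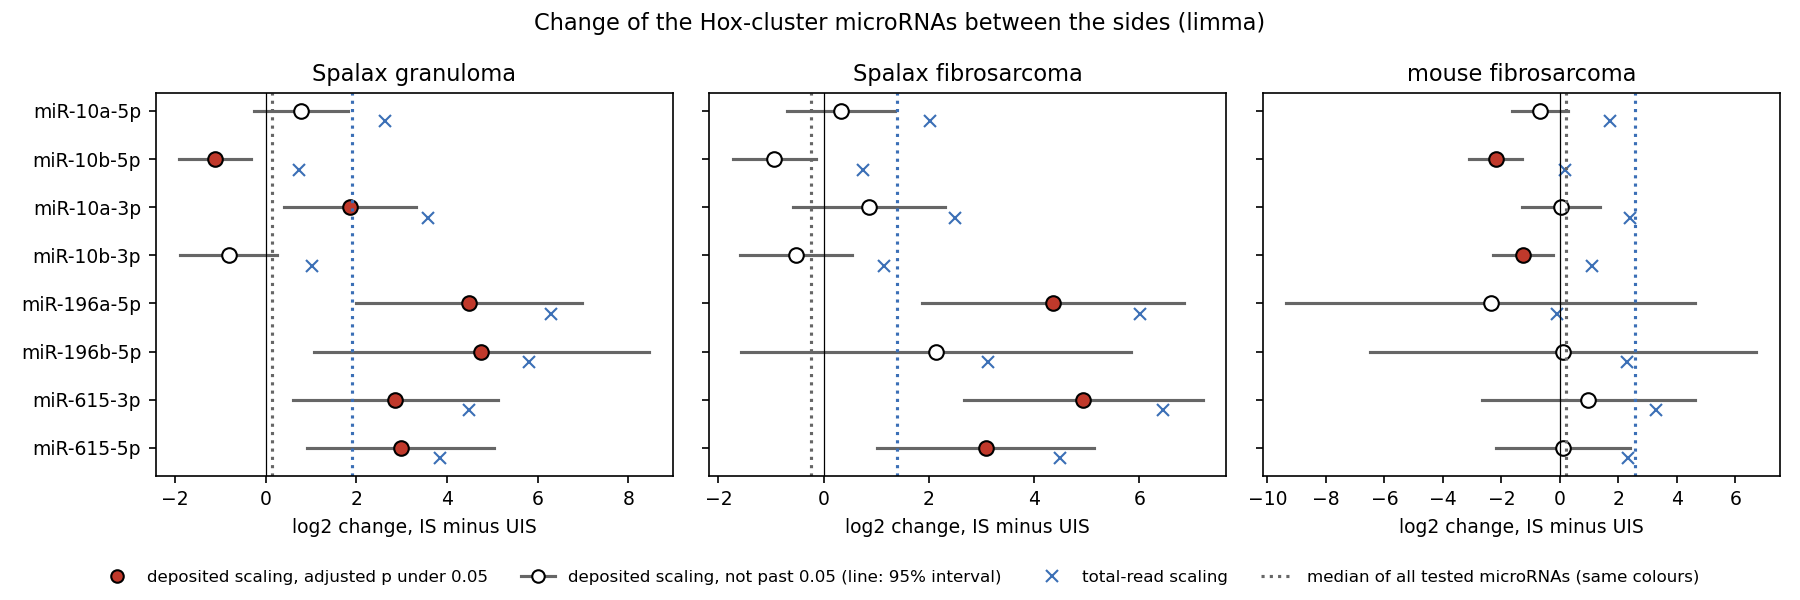
Log2 change from UIS to IS of the 8 members in each comparison with limma's 95% interval (circles, red where the adjusted p is under 0.05) and the change under total-read scaling (crosses); dotted lines are the median change of all microRNAs tested under each scaling. In Spalax miR-196b-5p and miR-615-5p passed the filter only through the IS, so their place, interval and fill there are not read as a result. The miR-196 and miR-615 members lie right of both medians in the Spalax panels and have wide intervals in mice, and miR-10b-5p lies left of the median in each panel.

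Between the Spalax conditions the members did not differ past the threshold. In the difference of the granuloma and fibrosarcoma changes 0 of the 8 passed by limma, where 3.80% of all microRNAs did. By edgeR and DESeq2 0 members passed as well, beside 21 and 61 of the 447 microRNAs, and at limma's unadjusted p under 0.05 there were 0 members beside 95 microRNAs. The largest differences were 2.62 for miR-196b-5p (95% interval -2.62 to 7.86, adjusted p = 0.589) and -2.07 for miR-615-3p (-5.29 to 1.14, adjusted p = 0.470). These wide intervals hold differences of either sign.

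The UIS of granuloma-bearing and fibrosarcoma-bearing Spalax gave 0 members past the threshold by limma, where 0% of all microRNAs passed. By edgeR and DESeq2 0 members and 0 microRNAs passed, and at limma's unadjusted p under 0.05 there were 0 members beside 5 of the 447 microRNAs. The difference of miR-10b-5p there was 0.46 (95% interval -0.33 to 1.25) and that of miR-196a-5p 0.25 (-2.24 to 2.74). Between granuloma and fibrosarcoma tissue 0 members passed by limma, where 18.8% of all microRNAs did. By edgeR 0 members passed beside 72 microRNAs, by DESeq2 1 (miR-615-3p) beside 111, and at limma's unadjusted p under 0.05 there were 0 members beside 123. There miR-615-3p was at -2.21 (SE 0.97, adjusted p = 0.192), that is, lower in granuloma.

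The miR-10 family has relatives outside the Hox clusters, miR-99a, miR-99b and miR-100, which carry a related 5p sequence. miR-99b-5p rose in each comparison, by 1.13 (limma's adjusted p = 0.0263) in granuloma, 1.28 (adjusted p = 0.0204) in Spalax fibrosarcoma and 0.98 (adjusted p = 0.0165) in mice, with values of 4995 to 6737 at the Spalax UIS and 11456 to 17258 at the Spalax IS. In the fit with the replicate block its adjusted p was 0.0697, 0.0580 and 0.0548. miR-100-5p rose in granuloma by 1.34 (adjusted p = 0.0460) and was at 0.84 (adjusted p = 0.196) in Spalax fibrosarcoma and -0.99 (adjusted p = 0.0512) in mice. miR-99a-5p fell in mice by 1.38 on the log2 scale (adjusted p = 0.0205, and 0.0826 with the block) and was at -0.99 and -1.26 in the Spalax comparisons, neither past the threshold. Under total-read scaling the mouse changes of miR-100-5p and miR-99a-5p turned to 1.40 and 0.999.

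Likeness of pattern was measured as the root mean square difference of log2(value + 1) profiles, centred within each table, over the 14 libraries and 399 other microRNAs. The nearest to miR-615-3p was its own 5p arm, at 0.93, where the median microRNA was at 2.43. The nearest to both miR-196a-5p and miR-196b-5p was miR-615-3p, at 2.23 and 2.32, with miR-615-5p next, where the medians were 3.42 and 3.22. Over the 14 libraries the miR-196 members were thus each nearer in pattern to miR-615 than to the other. These libraries include the tumor of mouse M512, with values of 7.78 for miR-196a-5p and 782 for miR-196b-5p. They also include its UIS library, where miR-196a-5p, miR-196b-5p and miR-615-3p lay 10.90, 9.21 and 5.28 above the mean of the other mouse UIS libraries. Likeness without these libraries of mouse M512 was not measured. The next nearest were miR-3074-5p for miR-196a-5p at 2.63, miR-130b-3p for miR-196b-5p at 2.51, miR-142a-5p and miR-15b-3p for miR-615-3p at 1.39 and 1.43, and miR-142a-5p and miR-141-3p for miR-615-5p, both at 1.02.

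For miR-10b-5p the nearest was its 3p arm at 0.39, then let-7d-5p and miR-26b-5p, both at 0.39 to 0.40. For miR-10a-3p the nearest was miR-10a-5p at 0.51, then miR-27a-5p at 0.52 and miR-148a-3p at 0.61, and for miR-10a-5p they were miR-191-3p at 0.39, miR-191-5p at 0.44 and let-7f-2-3p at 0.46. For miR-10b-3p they were let-7d-3p at 0.31, miR-181a-5p at 0.33 and miR-98-5p at 0.35. The 5p arms of miR-10a and miR-10b were not among the 3 nearest of each other.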

How the data were processed

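Adaptors were trimmed and reads mapped with mirDeep by the authors, with settings not given in the sources used here. The processing notes list GRCm38 without saying whether it served this mapping. The authors deposited a signal per microRNA name and library, reads divided by a size factor of the library, and whole reads were recovered for 100% of the values used (tolerance 0.001 reads). Of the Spalax table, 5 mouse columns were not used, since the mouse libraries were taken from their own table. Size factors recomputed over all 14 libraries matched those of the Spalax libraries (ratio 1), so mouse libraries entered the Spalax scaling. Over the Spalax libraries alone the ratio ran from 0.933 to 1.09. The mouse size factors were matched by the mouse libraries alone (ratio 1). limma 3.58.1 with a trend was fitted to log2(value + 1), in 1 fit for the 8 Spalax libraries and 1 for the 6 mouse libraries. A microRNA was tested if it reached 10 in 2 Spalax libraries, or in 3 for mice. The threshold was a Benjamini-Hochberg adjusted p of 0.05 over all microRNAs tested. P-values measure only the spread between these samples. Ratios within a library needed 10 reads of both names and were tested with exact permutations in scipy 1.17.1. Exact counting intervals (95%) and the limit of 3 reads for a count of 0 cover counting error only.

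The alternatives were edgeR 4.0.16, DESeq2 1.42.0 (both in R 4.3.3), a pseudocount of 0.1, no filter, total-read scaling, size factors without muscle microRNAs, fits of only the libraries compared, left-out libraries and the animal as a replicate block. Leaving out both libraries of mouse M512 was chosen after seeing the data. The block rests on libraries of the same animal. The correlations of their deviations were 0.0933 for Sp600 and Sp976, 0.00405 for Sp2230 and Sp2240, -0.107 for M1023 and 0.122 for M512. The 3 tools' fits of granuloma (447 microRNAs) and mouse fibrosarcoma (547) were tested on simulated data. The simulation gave all microRNAs the same dispersion and held no outlying library, and no result here rests on it. The members and lists were chosen with earlier results of these data known. The text names the 8 members, the other arms of their hairpins, the relatives of miR-10 and the 3 microRNAs nearest to each member in pattern.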

Additional observations from a re-analysis of the deposited data

Results flagged for a closer look

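miR-100-5p, a relative of miR-10 outside the Hox clusters, was higher at the IS in all 4 Spalax (mean log2 change 1.09) and lower at the IS in both paired mice (mean log2 change -0.85). The difference between the species was not tested, since each species was fitted apart. Under total-read scaling the mouse change by limma was 1.40.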

How the results depend on the processing

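The number of members past the threshold varied with the setting, and so did that of all microRNAs, given here beside it. In granuloma it was 6 (216 of 447 microRNAs), and 2 without a filter (210 of 670), 3 in a fit of only the 4 libraries compared (212 of 418) and 1 to 5 with a library left out, with 1 without the UIS library of Sp600 (139 of 444) or Sp976 (129 of 439) and 2 without the IS library of Sp600 (128 of 430) or the UIS library of Sp2230 (195 of 443) or Sp2240 (191 of 441). In Spalax fibrosarcoma it was 3 (167 of 447), 5 under total-read scaling (234 of 447) and 0 to 4 with a library left out, with 0 without the UIS library of Sp2240 (76 of 441) and 1 without that of Sp2230 (78 of 443). With a pseudocount of 0.1 it was 4 in granuloma (201 of 447) and 2 in Spalax fibrosarcoma (161 of 447). The Spalax counts include miR-196b-5p and miR-615-5p where these passed. In mice it was 2 (316 of 547), 3 under total-read scaling (404 of 547) and 3 without both libraries of mouse M512 (258 of 464), and 1 without a filter (339 of 1296), by edgeR (311 of 547) or with the animal as a replicate block (227 of 547), and 1 to 2 with a library left out (189 to 289 microRNAs). Between granuloma and fibrosarcoma tissue DESeq2 called 1 (111 of 447).

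Total-read scaling reversed miR-10b-5p (0.73, 0.75 and 0.18 in granuloma, Spalax fibrosarcoma and mice), miR-10b-3p (1.01, 1.14 and 1.10) and, in mice, miR-10a-5p (1.70, adjusted p = 0.0166 by limma). In mice changes that were not called also turned: miR-10a-3p was at -0.15 by DESeq2, -0.67 without both libraries of mouse M512 and -0.40 to 0.47 with a library left out; miR-196a-5p was at 2.41 without both libraries of mouse M512 and at -4.67 to 1.26 with a library left out; miR-196b-5p was at -1.90 by edgeR, -2.14 by DESeq2, -0.11 with the replicate block and -1.51 to 1.34 with a library left out; miR-615-3p was at -0.78 by edgeR, -1.003 by DESeq2 and -0.58 to 2.74 with a library left out; and miR-615-5p was at -0.29 by edgeR, -0.55 by DESeq2, -0.64 with the replicate block and -0.65 to 1.14 with a library left out. In Spalax fibrosarcoma miR-10a-5p was at -0.10 to 0.76 with a library left out. The cause of these turns was not tested.

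The ratio of miR-10a-5p to miR-10b-5p kept its direction in each alternative, at 1.52 in unpaired mice (exact permutation p = 0.1) and 1.32 to 1.89 with an animal left out (p = 0.0625 each, the smallest that 5 pairs allow).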
